A study of Mus musculus with 26 samples.

Results

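Mitochondrial ribosomal protein genes encode the protein subunits of the ribosome inside mitochondria. They were taken as all genes whose symbol is Mrpl or Mrps followed by a number and at most 1 further letter in the annotation of the Affymetrix array. This gave 76 of 18193 genes with a probe set of their own. By symbol, 47 are named for the large subunit (Mrpl) and 29 for the small subunit (Mrps). Each gene was represented by its probe set with the highest mean over all arrays, and all 76 passed the filter on low signal that left 13018 genes for testing. A further 2 symbols of this form, Mrpl30 and Mrpl53, were only on probe sets shared by several genes and were not analysed here.

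The mitochondrial ribosome translates the few proteins that the mitochondrial genome encodes, which are core subunits of the respiratory chain complexes and of ATP synthase. Its own proteins are all encoded in the nucleus, made in the cytosol and imported. It has many protein subunits, some with counterparts in bacterial ribosomes and others found in mitochondria alone, and the transcription factor Myc is known to bind the genes of many mitochondrial proteins.

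The arrays measured total RNA of immortalized mouse embryonic fibroblasts, cells from mouse embryos kept in permanent culture. The 3 parental lines WA, WB and WC each received the retroviral vector pBabe-puro, either empty, with human c-myc (the MYC transcription factor) or with v-src (the viral form of the Src tyrosine kinase, labelled human v-src), so all cells carry this vector and the controls carry it empty. There were 3 arrays for each of the 9 line and vector pairs, apart from WB with v-src, which had 2 (replicates 2 and 3). How the lines were immortalized, and whether infected cells were pooled or cloned, is not given in the sources used here.

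Signals are MAS5 intensities on a linear scale, with the trimmed mean of every array at 500, so they show levels relative to the rest of the RNA and not the amount of RNA per cell. Differences are in log2(signal + 23), which understates changes of low signals. Array medians lay between 89.0 and 134.6, and the ratio of the 3' to the 5' probe set of Gapdh was 0.776 to 0.812 in empty vector cells, 0.776 to 0.848 in c-myc cells and 0.812 to 0.843 in v-src cells. The mean correlation of an array with the others of its group was 0.963 to 0.982. It was lowest for WC c-myc replicate 1, and WA empty vector replicate 3 had the lowest median signal. Of 13 fibroblast markers, 13 passed the filter and 11 had a mean signal above 1000. Epithelial markers exceeded that level in 1 of 7 (Epcam), endothelial markers in 0 of 6 and macrophage and blood markers in 0 of 8.

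The mitochondrial ribosomal protein genes were higher in c-myc cells than in empty vector cells of all 3 lines. Over the lines, 33 of the 76 genes rose (43.4%) and 0 fell, at an adjusted p under 0.05 (limma on the averages of 3 lines, with line as a block and Benjamini-Hochberg adjustment over 13018 genes). Of all genes tested, 10% rose and 9.76% fell. The median log2 difference of the 76 genes was 0.35, against 0.04 for all genes tested, and single genes ranged from -0.08 to 0.94. Of the 76 genes, 73 had a difference above 0, which held for 54.6% of all genes. In 59 genes the c-myc difference was above 0 in each of the 3 lines (30.9% of all genes), and in 1 it was below 0 in each (25.3% of all genes). The changes were moderate in size: 15 genes were called with at least a 1.5-fold difference (4.36% of all genes) and 0 with at least a 2-fold difference (0.591% of all genes). Because an array reads a whole dish of cells, more cells of 1 kind and more of an RNA per cell cannot be told apart.

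Genes with either kind of symbol were among the c-myc rises. Of the genes with an Mrpl symbol, 22 of 47 rose with a median log2 difference of 0.37. Of those with an Mrps symbol, 11 of 29 rose with a median of 0.30, beside the 10% of all genes that rose. The split is by symbol alone, and some Mrps products sit elsewhere than in the small subunit, as given below.

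The summed signal of the 13 fibroblast markers also moved with the vector, from 160723 to 184417 in the 3 groups of empty vector cells to 116966 to 125148 with c-myc and 110199 to 119924 with v-src. Over the lines, 6 of the 13 fell with c-myc (9.76% of all genes) and 7 with v-src (6.79% of all genes), and 0 rose with either. Within WC, 3 of the 13 were called higher with v-src (13.8% of all genes) and 6 lower (15.1% of all genes). The summed epithelial markers gave 1472 to 2332 in empty vector cells, 1252 to 2723 with c-myc and 2173 to 4449 with v-src. The macrophage and blood markers gave 1003 to 1330 in empty vector cells, 1091 to 1635 with c-myc and 1274 to 3766 with v-src. Of these 8 markers 4 passed the filter, and Cd14 had the highest mean signal (664). Over the lines 1 of them was called higher with v-src (6.64% of all genes). The part of these shifts in the results on ribosomal protein genes was not tested.

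**Figure D1:**
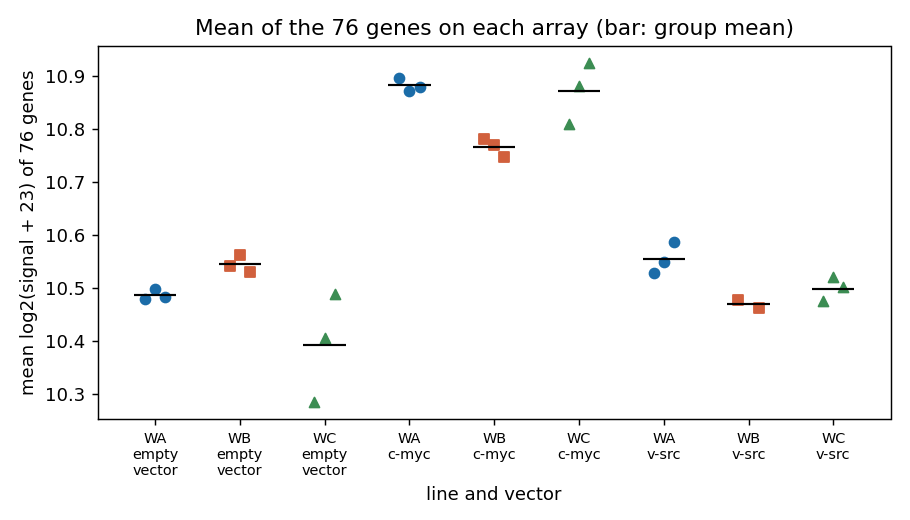
Mean of log2(signal + 23) over the 76 mitochondrial ribosomal protein genes on each of the 26 arrays, by line and vector; each point is an array and each bar the mean of its group. The c-myc arrays lie between 10.75 and 10.93, above all empty vector and v-src arrays, which lie between 10.28 and 10.59.

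As the plot of array means shows, the mean over the 76 genes was 10.48 to 10.50 in WA empty vector cells, 10.53 to 10.56 in WB and 10.28 to 10.49 in WC. With c-myc it was 10.87 to 10.90 in WA, 10.75 to 10.78 in WB and 10.81 to 10.93 in WC. With v-src it was 10.53 to 10.59 in WA, 10.46 to 10.48 in WB and 10.48 to 10.52 in WC. The c-myc arrays of each line stood apart from that line's other arrays, and WC empty vector cells were the most spread, with replicate 1 the lowest of all 26 arrays.

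Among single genes, 35 of 76 had every c-myc array above every empty vector array of the same line in all 3 lines (46.1%, against 9.03% of all genes tested), and 0 had the reverse in all 3 lines (9.33% of all genes). At an unadjusted p under 0.05, 47 of the 76 genes differed over the lines (34.4% of all genes). With the variance pooled over the 76 genes, the vector accounted for 63.0% of it between the 9 group means, the line for 26.2% and their combination for 10.8%. In such a pooled share, genes with larger differences weigh more. Over all genes tested these shares were 42.4%, 41.9% and 15.8%.

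Mrps5, a small subunit protein of a family shared with bacteria, had the largest difference. Its signals in empty vector cells were 691, 847 and 771 in WA, 716, 837 and 758 in WB and 505, 603 and 525 in WC. With c-myc they were 1537, 1546 and 1450.2 in WA, 1405, 1288 and 1262 in WB and 1030.4, 1238 and 1292 in WC. With v-src they were 737, 773 and 813 in WA, 812 and 756 in WB and 626, 617 and 747 in WC. All c-myc arrays were above all arrays of the other vectors, while v-src and empty vector arrays overlapped in WA and WB and not in WC. The difference over the lines was 0.94 on the log2 scale with c-myc (SE 0.11, 1.91-fold, limma adjusted p = 0.0037) and 0.10 with v-src (adjusted p = 0.57).

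Mrpl42, a mitochondria-specific protein of the large subunit, was also highest with c-myc. It gave 2709.7, 2320.4 and 2298 in WA empty vector cells, 2358, 2469 and 2476 in WB and 2677, 2692 and 3141 in WC. With c-myc it gave 4302, 4939.8 and 5544 in WA, 4366, 3991 and 3986 in WB and 3849, 4789 and 5415 in WC. With v-src it gave 2518, 2621 and 2674 in WA, 2463 and 2319 in WB and 2709, 2699 and 2682 in WC. The c-myc arrays were again above all others, and v-src arrays lay among the empty vector arrays in WA and WC and overlapped them in WB. The difference with c-myc was 0.82 (SE 0.09, 1.77-fold, limma adjusted p = 0.0028).

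Mrpl1, a protein of the flexible L1 stalk that guides spent tRNAs out, rose with c-myc. In empty vector cells it was at 403, 421 and 267 in WA, 373, 263 and 339.7 in WB and 301, 373 and 458 in WC. With c-myc it was at 696, 651 and 654 in WA, 597, 574 and 649 in WB and 578, 729 and 704 in WC. With v-src it was at 465, 493 and 509 in WA, 416 and 428 in WB and 369.9, 444 and 480.5 in WC. The v-src arrays were above the empty vector arrays in WA and WB, overlapped them in WC, and were below the c-myc arrays of their line throughout. The difference was 0.84 with c-myc (SE 0.11, 1.79-fold, limma adjusted p = 0.0044) and 0.33 with v-src (adjusted p = 0.087). The other probe set of Mrpl1 above the filter gave 0.31 with c-myc (adjusted p = 0.13) and, in the opposite direction, -0.37 with v-src (adjusted p = 0.10).

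Mrpl12 is a protein of the stalk that recruits translation factors, and it also binds the mitochondrial RNA polymerase. Its empty vector signals were 2753, 2542 and 2696 in WA, 2198, 2509.6 and 2341 in WB and 1462, 1694 and 1829.8 in WC. The c-myc signals were 4295, 4079 and 4024 in WA, 3234, 3415 and 3096 in WB and 3267, 3598 and 4010.4 in WC. The v-src signals were 3022, 2878 and 3175 in WA, 2207 and 2151 in WB and 2070.1, 2002 and 2098 in WC. The lines started from different levels, lowest in WC, and the c-myc arrays of each line were above its other arrays. The difference over the lines was 0.74 with c-myc (SE 0.13, 1.67-fold, limma adjusted p = 0.0088) and 0.13 with v-src (adjusted p = 0.55).

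The other genes among the 10 largest rises were Mrpl19 (log2 difference 0.82), Mrpl47 (0.79), Mrpl34 (0.79) and Mrpl45 (0.75) of the large subunit and Mrps22 (0.76) and Mrps35 (0.75) of the small subunit. Mrpl19 and Mrpl34 belong to families shared with bacteria, and Mrps22 and Mrps35 are mitochondria-specific. Their limma adjusted p-values lay between 0.0048 (Mrpl47) and 0.0095 (Mrpl34). All 10 were higher with c-myc in each of the 3 lines, which was a condition of their choice.

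At the other end, 5 large subunit genes had differences near 0: Mrpl17 (0.03), Mrpl20 (0.01), Mrpl32 (-0.02), Mrpl52 (-0.07) and Mrpl33 (-0.08), none with an adjusted p under 0.6. Mrpl32, a zinc-binding protein that is cut by a mitochondrial protease before it joins the ribosome, differed by 0.34 in WA, 0.08 in WB and -0.47 in WC. The spread of Mrpl32 between arrays was wide, 2932, 1741 and 2858 in WA c-myc cells and 1821, 2742 and 1432 in WA empty vector cells.

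**Figure D2:**
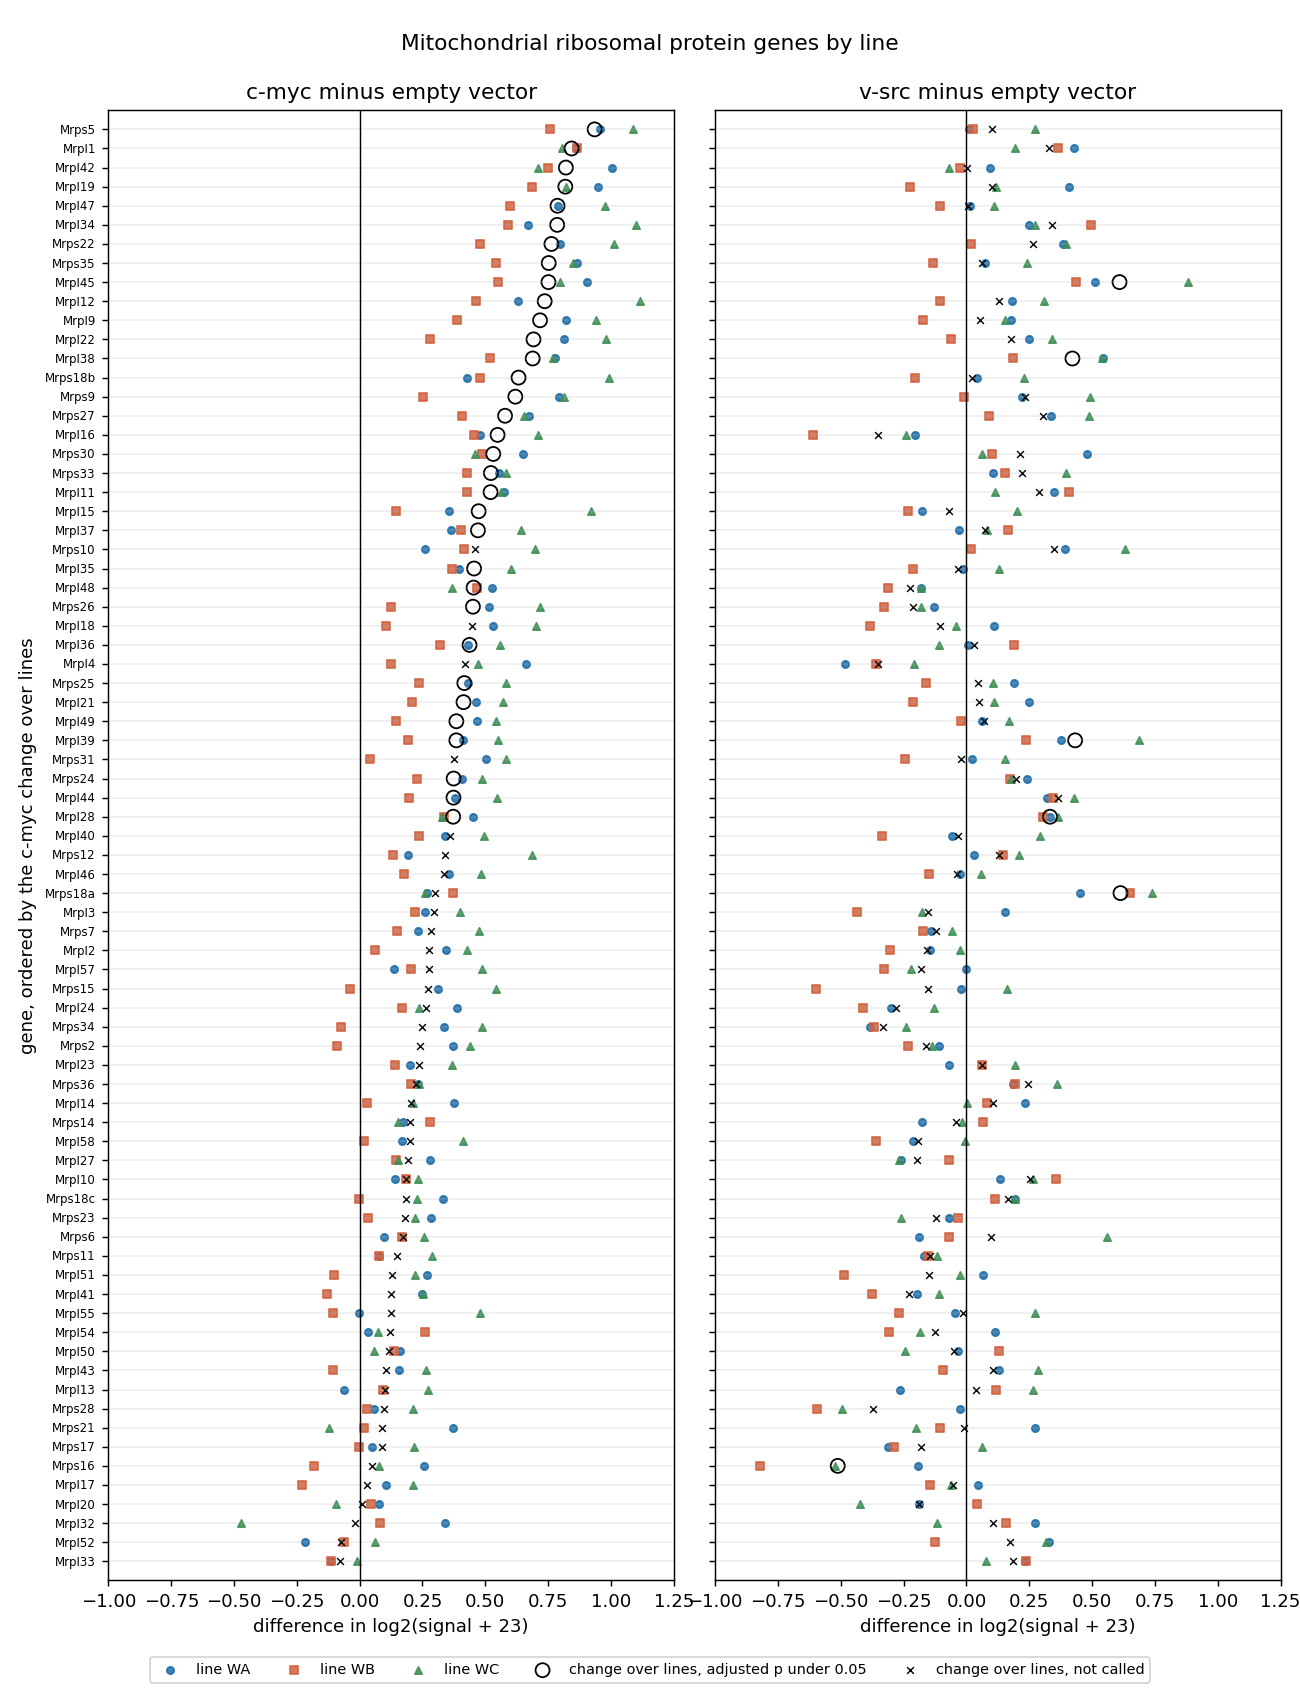
Difference from empty vector cells in log2(signal + 23) for each of the 76 genes, with c-myc on the left and v-src on the right; coloured points are the 3 lines, and open circles (called at an adjusted p under 0.05) or crosses (not called) the difference over the lines. With c-myc, 73 of 76 genes lie above 0, and with v-src 42 of 76 do.

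Some members of the list have particular roles. Mammals have 3 forms of the bacterial protein S18, encoded by Mrps18a, Mrps18b and Mrps18c, of which the Mrps18a product sits in the large subunit despite its name. With c-myc, Mrps18b rose by 0.63 on the log2 scale (limma adjusted p = 0.015), while Mrps18a differed by 0.30 (adjusted p = 0.063) and Mrps18c by 0.19 (adjusted p = 0.24). Mrps30, whose product also sits in the large subunit, rose by 0.53 with c-myc (adjusted p = 0.015). Mrps36, whose product is part of the 2-oxoglutarate dehydrogenase complex in mammals, differed by 0.22 with c-myc (adjusted p = 0.11) and 0.25 with v-src (adjusted p = 0.11).

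Several probe sets above the filter existed for 36 of the 76 genes. In 32 of these all probe sets had the same sign with c-myc, and in 22 with v-src. Of the 59 further probe sets, 15 were called higher with c-myc (25.4%) and 0 lower in a limma fit over 23132 probe sets, of which 9.85% were called higher and 9.05% lower. The size differed between probe sets: the 4 others of Mrps5 gave 0.22, 0.26, 0.60 and 0.89.

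Without WC c-myc replicate 1 and WA empty vector replicate 3, the arrays that stood apart, the count of c-myc rises was again 33. The count over the lines rests on all 3 lines. Each pair of lines alone gave fewer calls, 4 with WA left out, 19 with WB left out and 3 with WC left out, while the median log2 difference stayed between 0.27 and 0.42. With the arrays taken as separate values it was 57, but arrays of the same line and vector are then treated as independent. The shares of all genes called in these other fits are not given here. A change in the count cannot be told apart from a change in calls over all genes.

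Within each line, arrays are the replicates, and nothing in the labels says that they come from separate cultures, so these p-values measure the spread between arrays alone, and that spread may be technical. In WA 50 of the 76 genes rose with c-myc (19.0% of all genes did), in WB 27 (12.5%) and in WC 56 (18.6%). The median log2 differences were 0.37 in WA, 0.19 in WB and 0.48 in WC. Of the 76 genes, a rise was called in all 3 lines for 25 (6.71% of all genes), in 2 lines for 22 (7.77%), in 1 line for 14 (14.4%) and in none for 15 (71.1%).

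Lower calls were few: Mrpl52, a mitochondria-specific large subunit protein, fell in WA by 0.22 on the log2 scale (limma adjusted p = 0.026, 18.5% of all genes lower), Mrpl32 fell in WC by 0.47 (adjusted p = 0.049, 18.6% of all genes lower), and 0 genes fell in WB (14.5% of all genes). The Mrpl52 call was lost without WA empty vector replicate 3 or WA c-myc replicate 1 or 3, and then 0 genes fell. The Mrpl32 call was lost, leaving 0, without any 1 array of WB, of v-src cells or of WC empty vector cells, without WC c-myc replicate 2 or 3, or without WA empty vector replicate 1.

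The difference between c-myc and empty vector cells itself differed between lines for 21 of the 76 genes (27.6%, limma F test, adjusted p under 0.05), against 16.2% of all genes. Of these 21, the difference, taken with its sign, was lowest in WB in 19 and highest in WC in 19. How often the lines held these places among all genes called is not given here. The count was 14 without WB empty vector replicate 3. All F tests in this text also take arrays as replicates, so their p-values measure the spread between arrays alone. A difference between lines cannot be told apart there from a difference between infections or cultures. The smallest p belonged to Mrpl12, which differed by 0.63 in WA, 0.46 in WB and 1.12 in WC (F test, adjusted p = 0.00077).

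Next in order were 3 large subunit genes, of which Mrpl4 and Mrpl22 encode proteins that line the tunnel of the new chain, and 1 of the small subunit. Mrpl4 differed by 0.66 in WA, 0.12 in WB and 0.47 in WC (F test, adjusted p = 0.0013). Mrpl22 differed by 0.81, 0.28 and 0.98 in the same order of lines (adjusted p = 0.0019), and Mrps26, mitochondria-specific, by 0.51, 0.12 and 0.72 (adjusted p = 0.0020). Mrpl15 differed by 0.36, 0.14 and 0.92 (adjusted p = 0.0041). In all 4 the WB difference was the smallest, and Mrpl15 lost this call when the probe sets of a gene were averaged (adjusted p = 0.054).

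For Mrpl15 the single arrays were as follows. Its empty vector signals were 2824, 3154 and 3920.2 in WA, 2382, 2571 and 2583 in WB and 1490.5, 1670.0 and 1871 in WC, and its c-myc signals 4426, 4176 and 3987 in WA, 2848, 2905 and 2588 in WB and 3109, 3256 and 3174 in WC. The WC empty vector arrays were the lowest of the 3 lines, and with c-myc WC lay above WB.

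Empty vector cells of the 3 lines already differed in 43 of the 76 genes (56.6%, limma F test, adjusted p under 0.05), against 44.9% of all genes. Of the 43, WC was lowest in 26 and WB highest in 26, and the same shares among all genes called are not given here. The F tests of baseline and of vector effects share the empty vector arrays. Mrps6, a small subunit protein of a family shared with bacteria, was at 5089, 4702 and 4809 in WA, 8329, 9277 and 8754 in WB and 3993, 4570.4 and 4619 in WC, so that WB stood far above the other lines (log2 difference WB minus WA 0.85, F test, adjusted p = 4.82e-10). Mrpl23, a large subunit protein at the mouth of the exit tunnel, was at 1410.2, 1525 and 1409 in WA, 812, 789 and 774 in WB and 1434, 1469.5 and 1459 in WC, the opposite order with WB far below (WB minus WA -0.85, adjusted p = 1.52e-09).

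Mrpl39, a large subunit protein related to tRNA synthetases, was 0.53 higher in WB than in WA and 0.29 lower in WC than in WA on the log2 scale (F test, adjusted p = 1.05e-07). Mrpl12 was lowest in WC (WC minus WA -0.68, adjusted p = 8.43e-07), and so was Mrpl15 (WC minus WA -0.96, adjusted p = 1.32e-06). In c-myc cells, Mrps6 was at 5356, 5240.5 and 5013 in WA, 10974, 9895 and 8830.0 in WB and 4863, 5102 and 5824 in WC, and Mrpl23 at 1658, 1627 and 1714 in WA, 811, 939 and 879.8 in WB and 1917, 1985 and 1748 in WC. The place of WB in the order of lines was thus kept in c-myc cells for both genes.

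In v-src cells the calls among these genes were few over the lines and went both ways within lines. Over the lines 5 of 76 rose (6.58%, against 6.64% of all genes) and 1 fell (1.32%, against 6.79% of all genes), at a limma adjusted p under 0.05. The median log2 difference was 0.03, against 0.02 for all genes, with single genes from -0.51 to 0.61. The difference was above 0 for 42 genes (52.4% of all genes), above 0 in each line for 22 (27.2% of all genes) and below 0 in each line for 17 (26% of all genes). Every v-src array was above every empty vector array of its line in all 3 lines for 8 genes (7.47% of all genes), and below for 1 (9.07% of all genes). At an unadjusted p under 0.05, 19 genes differed (29.9% of all genes did). A count of rises near that of all genes is no result about these genes as a group.

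Mrps18a had the largest rise with v-src. In empty vector cells it was at 1438, 1741 and 1693 in WA, 1412, 1597 and 1501 in WB and 1307, 1548 and 1788 in WC. With v-src it was at 2177, 2297 and 2195 in WA, 2285 and 2454 in WB and 2678, 2379 and 2683 in WC. With c-myc it was at 2106, 1805 and 1959 in WA, 1925, 1913 and 2009.6 in WB and 1523, 2028 and 2021 in WC. In each line all v-src arrays were above all arrays of the other vectors. The log2 difference was 0.61 from empty vector cells (SE 0.10, 1.53-fold, limma adjusted p = 0.0072).

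Mrpl45, a large subunit protein that anchors the ribosome to the inner membrane, was higher with both oncogenes. Its empty vector signals were 1421, 1484 and 1594 in WA, 1289.5, 1426 and 1282 in WB and 1162, 1358 and 1301 in WC. The c-myc signals were 2774, 2844 and 2868 in WA, 1928, 2017 and 1931 in WB and 2003, 2347 and 2347 in WC. The v-src signals were 2169, 2247 and 2019 in WA, 1658 and 1978 in WB and 2483, 2433 and 2171 in WC. Neither set overlapped the empty vector arrays of its line, and v-src arrays were below c-myc arrays in WA alone without overlap. The differences were 0.75 with c-myc (limma adjusted p = 0.0075) and 0.61 with v-src (adjusted p = 0.018).

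The other rises with v-src were Mrpl39 (0.43, limma adjusted p = 0.033), Mrpl38 (0.42, adjusted p = 0.047) and Mrpl28 (0.33, adjusted p = 0.029), all of the large subunit. Their c-myc differences were 0.38, 0.69 and 0.37, each called, so Mrps18a was the 1 gene of the 5 with no c-myc call over the lines. For Mrpl28, the arrays of WA were 2506, 2679 and 2066 with the empty vector and 3020.4, 3083 and 2983 with v-src, those of WB 2423, 2359.8 and 2413 and 2893 and 3043, and those of WC 2123, 2509 and 2924 and 3054, 3144 and 3469, with no overlap in any line. Its other probe sets gave smaller differences, 0.02 and 0.18 with v-src and 0.14 and 0.25 with c-myc, none called. The other probe set of Mrpl38 gave 0.39 with c-myc and 0.38 with v-src, neither called. That of Mrpl39 was called higher with both, at 0.45 and 0.37.

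Mrps16, a small subunit protein of a family shared with bacteria, was the 1 gene that fell with v-src. Its signals in empty vector cells were 2236, 1940.3 and 2056 in WA, 2699, 2778 and 2788 in WB and 2043, 3035 and 2608 in WC. With v-src they were 1610.0, 1862 and 1987 in WA, 1688 and 1419 in WB and 1734, 1927 and 1615 in WC. The arrays overlapped in WA and were apart in WB and WC, with per-line differences of -0.19, -0.82 and -0.52. Over the lines it fell by 0.51 on the log2 scale (SE 0.12, limma adjusted p = 0.032).

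The other low v-src differences were those of Mrps28 (-0.37, limma adjusted p = 0.12) and Mrpl16 (-0.35, adjusted p = 0.080), a large subunit protein near the peptidyl transferase centre, with Mrpl4 (-0.35, adjusted p = 0.13) and Mrps34 (-0.33) close behind. Without the pair of arrays that stood apart, 3 genes rose and 1 fell with v-src. Leaving out any line ended those of Mrpl28, Mrpl38, Mrpl39 and Mrpl45, and leaving out WB or WC those of Mrps18a and Mrps16. Mrpl38 also lost its call in turn without WA empty vector replicate 3, WB empty vector replicate 1, WC empty vector replicate 1 or 2, WB c-myc replicate 1 or 3, WC c-myc replicate 1, WA v-src replicate 3, WB v-src replicate 2 or WC v-src replicate 3.

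Within the lines the v-src calls went in different directions. In WA 12 genes rose (13.2% of all genes) and 5 fell (14.1%), in WB 6 rose (12%) and 16 fell (13.5%), and in WC 19 rose (13.8%) and 6 fell (15.1%). The medians were 0.05 in WA, -0.10 in WB and 0.11 in WC. Rises called in all 3 lines were those of Mrpl28, Mrpl45 and Mrps18a, 3 genes beside 4.71% of all genes, and the 1 fall called in all 3 lines was that of Mrpl4, beside 5.63% of all genes.

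Single arrays moved several of these counts. In WB, leaving out v-src replicate 2 gave 2 rises and 8 falls, v-src replicate 3 gave 2 rises, and empty vector replicate 3 gave 3 rises. In WA the falls were 3 without empty vector replicate 3 or v-src replicate 1. In WC they were 3 without empty vector replicate 2 or 3 or v-src replicate 1.

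The v-src effect differed between the lines for 14 of the 76 genes (18.4%, limma F test, adjusted p under 0.05), against 13.5% of all genes. Of these 14, WB had the lowest difference in 13, and the highest lay in WA for 7 and in WC for 7. The same shares among all genes called are not given here. The count was 9 without WB empty vector replicate 2, WB v-src replicate 2, or WC v-src replicate 1 or 2, and 8 without WB v-src replicate 3.

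Mrps6 had the smallest p of this test, with v-src differences of -0.19 (WA), -0.07 (WB) and 0.56 (WC) (F test, adjusted p = 9.00e-05). Its v-src signals were 4359, 4253 and 4178 in WA, 8182 and 8534 in WB and 6331, 6401 and 6666 in WC, all above the empty vector arrays in WC and all below them in WA. Mrpl51, a mitochondria-specific large subunit protein, fell in WB alone among the lines, with differences of 0.07 (WA), -0.49 (WB) and -0.03 (WC) (adjusted p = 0.00069). Its WB arrays were 5218, 5135 and 5075 with the empty vector and 3534 and 3784 with v-src.

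Mrps28, a small subunit protein, differed by -0.03 in WA, -0.60 in WB and -0.49 in WC (F test, adjusted p = 0.0022). Mrpl21, of the large subunit, differed by 0.25, -0.21 and 0.11 in the same order (adjusted p = 0.0037), and Mrps15, of the small subunit, by -0.02, -0.60 and 0.16 (adjusted p = 0.0049). With the probe sets of a gene averaged, the calls of Mrpl21 (adjusted p = 0.73) and Mrpl51 (adjusted p = 0.30) were lost, and Mrps15 lost its call without WB v-src replicate 2 (adjusted p = 0.094).

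**Figure D3:**
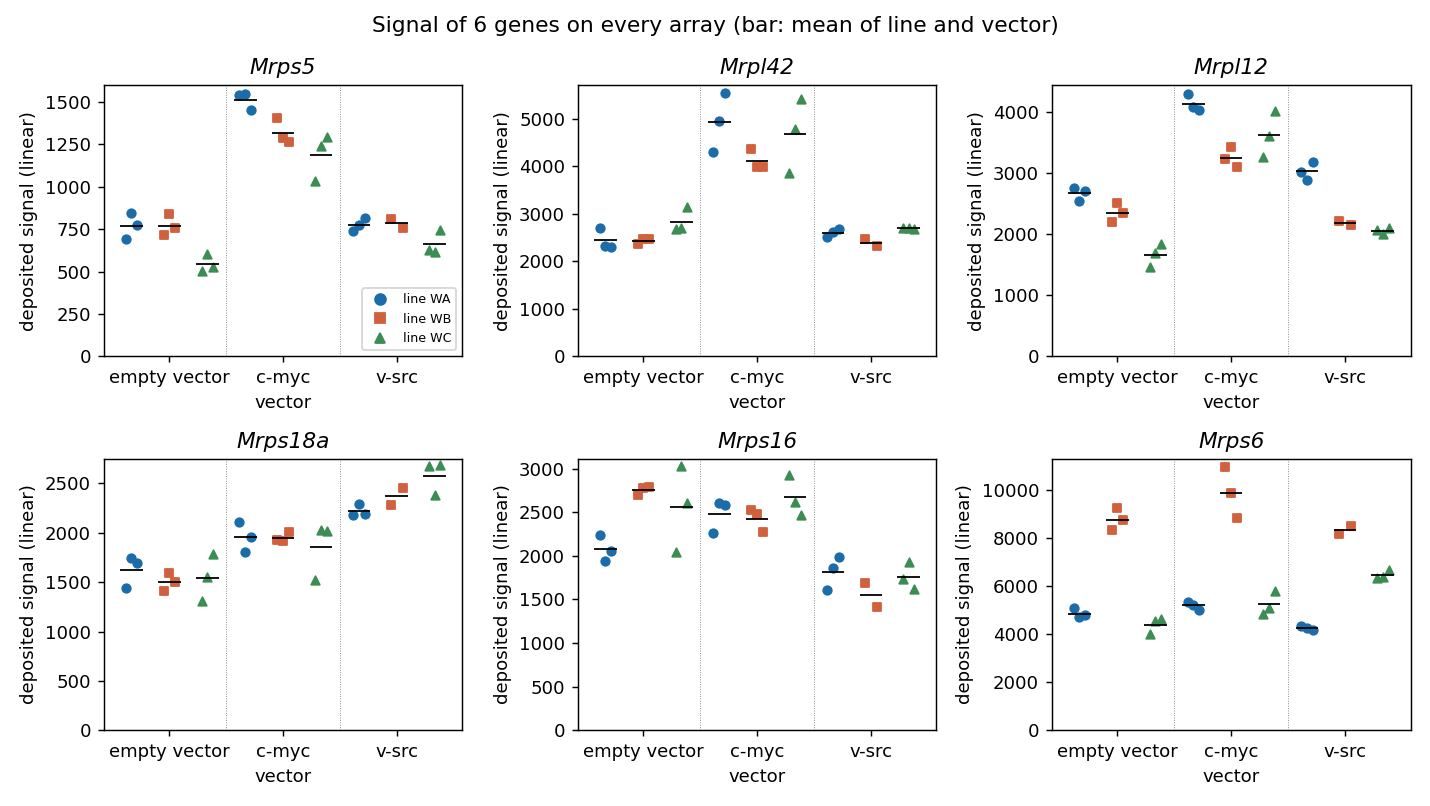
Deposited signals (linear scale) of 6 mitochondrial ribosomal protein genes on every array, by line and vector; each point is an array and each bar the mean of its group. Mrps5, Mrpl42 and Mrpl12 are high with c-myc, Mrps18a is highest with v-src, Mrps16 is low with v-src in WB and WC, and Mrps6 differs between the lines.

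Set directly against each other, v-src cells had lower levels than c-myc cells for 33 of the 76 genes (43.4%, against 13.7% of all genes) and higher levels for 1 (1.32%, against 11.9% of all genes), at a limma adjusted p under 0.05. The median log2 difference was -0.37, against -0.02 for all genes, and 52 genes had an unadjusted p under 0.05 (38.0% of all genes). This comparison shares its c-myc arrays with the comparison of c-myc and empty vector cells. Without the pair of arrays that stood apart, 34 genes were lower and 0 higher. Without a line the lower count was 14 (WA), 21 (WB) or 8 (WC), and the shares of all genes in these fits are not given here. Related gene groups also had calls between v-src and c-myc cells, beside the 13.7% of all genes lower and 11.9% higher. Of 44 cytosolic ribosomal protein genes 35 were lower with v-src than with c-myc and 0 higher. Of 73 respiratory chain and ATP synthase subunits 33 were lower and 2 higher, and of 19 genes that charge mitochondrial tRNAs 10 were lower and 0 higher.

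Of the 76 genes, Mrpl16 had the largest difference between v-src and c-myc cells. It gave 1815, 1575 and 1527 in WA empty vector cells, 1767, 1929 and 1879 in WB and 1206, 1336 and 1651 in WC. With c-myc it gave 2554, 2093 and 2246 in WA, 2381, 2664 and 2623 in WB and 2185, 2244 and 2432 in WC. With v-src it gave 1282, 1406 and 1575 in WA, 1189 and 1231 in WB and 1081, 1206 and 1223 in WC. The c-myc arrays lay above the empty vector arrays of their line, and the v-src arrays lay below these without overlap in WB and partly among them in WA and WC. Mrpl16 was 0.90 lower on the log2 scale with v-src than with c-myc (1.87-fold, limma adjusted p = 0.0020), made up of 0.55 with c-myc (adjusted p = 0.016) and -0.35 with v-src against empty vector cells.

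The next largest were Mrps5 (-0.83), Mrpl42 (-0.82), Mrpl47 (-0.78), Mrpl4 (-0.77) and Mrpl19 (-0.72), with limma adjusted p-values between 0.0011 (Mrpl42) and 0.0065 (Mrpl4). Mrpl4 was 0.42 higher with c-myc (adjusted p = 0.065) and 0.35 lower with v-src (adjusted p = 0.13) than in empty vector cells on the log2 scale, neither called over the lines. The 1 gene higher with v-src was Mrps18a (0.31, adjusted p = 0.046). This call was lost in turn without any line, and without WA empty vector replicate 1, WC empty vector replicate 3, WA c-myc replicate 2, WB c-myc replicate 1 or 2, WC c-myc replicate 1, WA v-src replicate 2 or WB v-src replicate 3, each leaving 0 genes.

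The other genes of mitochondrial translation were looked at in 5 lists, whose counts of rises with c-myc stand beside the 10% of all genes tested that rose. Subunits of the mitochondrial ribosome with other names had 3 of 4 tested genes higher with c-myc: Ptcd3 (0.72), Gadd45gip1 (0.68) and Dap3 (0.43), the last known first as a protein linked to cell death. Chchd1 differed by 0.30 (limma adjusted p = 0.058). Of the translation factors 3 of 11 rose, namely Tufm (0.76) and Gfm1 (0.60), the elongation factors that bring tRNAs and move the ribosome on, and Pdf (0.51), which removes the formyl group from new chains.

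Of 23 genes for ribosome assembly and rRNA modification, 6 rose with c-myc. Noa1, a GTPase of ribosome assembly, had the largest difference of all genes in these lists, 1.23 on the log2 scale (limma adjusted p = 0.0029). Rpusd4 (0.78), Fastkd2 (0.61), Dhx30 (0.51), Mrm3 (0.46) and Ddx28 (0.45) followed. Of 13 genes for mitochondrial transcription and RNA processing, 5 rose. They were Elac2 (0.84), which trims tRNA ends, Lrpprc (0.74), which stabilizes mitochondrial mRNAs, Tfam (0.68), Trmt10c (0.64) and Supv3l1 (0.61). The Tfam product packs mitochondrial DNA and is a factor for starting its transcription. Of 19 genes that charge mitochondrial tRNAs, 4 rose, Yars2 (0.93), Gatc (0.62), Vars2 (0.58) and Gatb (0.55).

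In none of the 5 lists did a gene fall with c-myc over the lines, and with v-src 0 genes of these lists were called in either direction in that fit. The median c-myc differences were 0.56 for subunits with other names, 0.34 for factors, 0.27 for assembly, 0.32 for transcription and RNA processing and 0.41 for tRNA charging, beside 0.35 for the 76 genes. Of the cytosolic ribosomal protein genes 7 of 44 tested rose with c-myc, with a median of 0.13, and of the respiratory chain and ATP synthase subunits 19 of 73 rose, with a median of 0.19, beside the same 10% of all genes. The difference between these lists was not tested.

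**Figure D4:**
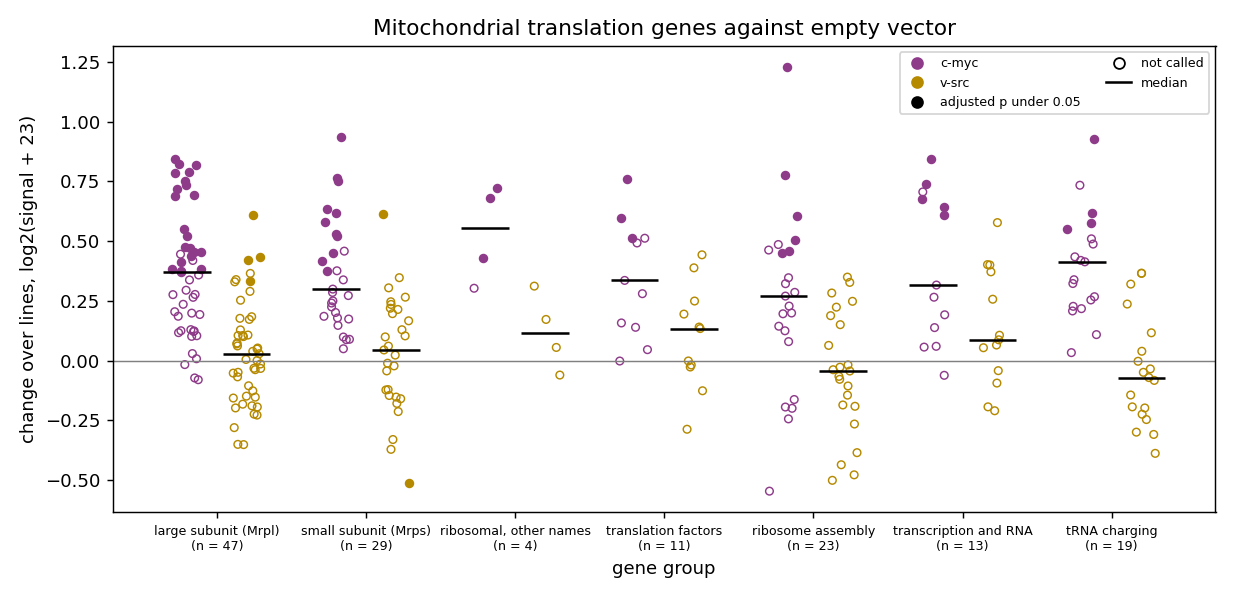
Log2 differences from empty vector cells over the lines, with c-myc and with v-src, for the 76 genes and the 5 further lists. The 76 genes are split by symbol, Mrpl (labelled large subunit) and Mrps (labelled small subunit). Each point is a gene, filled where called at an adjusted p under 0.05, and each bar a median. The c-myc medians lie between 0.27 (ribosome assembly) and 0.56 (ribosomal genes with other names), and those of v-src between -0.07 (tRNA charging) and 0.13 (translation factors).

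The promoters of the genes were read from RefSeq for mouse build GRCm38.p6, as windows of 300 bases from 250 before to 50 after a gene's start. A window was found for 67 of the 76 genes, 73 windows in all, counting alternative starts. Both strands were searched for the E-box CACGTG, which Myc binds together with Max, and for short forms of the sites of nuclear respiratory factor NRF1 (10 letters with any base at 1 position, seen in capitals in the windows of Mrpl45 and Mrpl12), of ETS family factors (CCGGAAGT) and of YY1 (AANATGGCG), which are known at genes of mitochondrial proteins. No motif overlapped another in these windows. A match to letters is not evidence of binding.

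The E-box was in the windows of 5 of the 67 genes (7.46%), against 8.91% of 17492 protein-coding genes. The NRF1 form was in 12 (17.9%, against 7.17%), the ETS form in 12 (17.9%, against 5.69%) and the YY1 form in 11 (16.4%, against 3.64%). At least 1 of the 4 motifs was in 34 of the 67 (50.7%), against 21.8% of these protein-coding genes. The 17492 genes were not limited to those passing the filter on low signal, which all 76 passed. The shares were not compared with those of genes that passed it. Among the 29 genes with a window that rose with c-myc over the lines, 2 had the E-box, 7 the NRF1 form, 4 the ETS form and 7 the YY1 form. Among the 38 that were not called these counts were 3, 5, 8 and 4. The 5 genes with an E-box had c-myc differences between 0.01 and 0.47 with a median of 0.28, and the 62 without had a median of 0.35.

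The promoter windows of 5 genes are printed to show the motifs in genes with and without a rise. Capitals mark the motifs, and each window is written 5′ to 3′ on the gene's strand. Mrpl42 (chr10:95501900-95502199, minus strand) has the YY1 form 28 bases after the start, Mrpl45 (chr11:97315466-97315765, plus strand) the NRF1 form 3 times, at 120 and 38 bases before and 16 after the start, and Mrpl12 (chr11:120484387-120484686, plus strand) the NRF1 form 81 bases before it. The E-box is shown in Mrpl37 (chr4:107066817-107067116, minus strand), 162 bases before the start with the YY1 form 27 bases after it, and in Mrpl20 (chr4:155802628-155802927, plus strand), 33 bases before the start.
Mrpl42: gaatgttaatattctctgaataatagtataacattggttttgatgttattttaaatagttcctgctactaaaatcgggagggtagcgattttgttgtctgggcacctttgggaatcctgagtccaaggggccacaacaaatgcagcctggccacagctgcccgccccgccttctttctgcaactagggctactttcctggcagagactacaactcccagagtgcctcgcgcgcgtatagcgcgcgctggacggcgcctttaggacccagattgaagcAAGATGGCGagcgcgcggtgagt
Mrpl45: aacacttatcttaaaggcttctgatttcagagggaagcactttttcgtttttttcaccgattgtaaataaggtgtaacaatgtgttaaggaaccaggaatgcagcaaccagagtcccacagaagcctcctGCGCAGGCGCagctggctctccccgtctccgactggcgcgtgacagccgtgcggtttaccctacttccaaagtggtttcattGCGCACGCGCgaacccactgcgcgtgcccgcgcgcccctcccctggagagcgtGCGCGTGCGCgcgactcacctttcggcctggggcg
Mrpl12: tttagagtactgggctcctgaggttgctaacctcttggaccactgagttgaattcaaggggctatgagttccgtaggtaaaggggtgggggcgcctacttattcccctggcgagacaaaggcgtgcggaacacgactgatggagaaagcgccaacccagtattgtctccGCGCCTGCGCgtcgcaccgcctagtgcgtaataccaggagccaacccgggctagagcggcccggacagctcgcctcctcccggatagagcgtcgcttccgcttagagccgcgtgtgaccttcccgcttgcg
Mrpl37: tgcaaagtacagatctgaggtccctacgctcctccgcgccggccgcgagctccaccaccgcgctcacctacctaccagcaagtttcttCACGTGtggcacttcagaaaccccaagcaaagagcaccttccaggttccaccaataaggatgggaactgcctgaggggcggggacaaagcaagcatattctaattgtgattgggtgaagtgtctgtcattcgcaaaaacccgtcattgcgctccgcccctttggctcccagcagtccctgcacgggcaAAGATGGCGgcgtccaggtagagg
Mrpl20: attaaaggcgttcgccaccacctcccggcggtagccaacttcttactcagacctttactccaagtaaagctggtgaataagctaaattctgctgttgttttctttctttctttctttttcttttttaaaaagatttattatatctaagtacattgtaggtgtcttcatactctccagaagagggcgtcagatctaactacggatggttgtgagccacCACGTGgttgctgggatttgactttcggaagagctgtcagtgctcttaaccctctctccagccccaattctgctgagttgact
Of the genes with an E-box, Mrpl37 and Mrpl36 rose with c-myc, by 0.47 and 0.44 on the log2 scale, and Mrpl20 (0.01), Mrps18c (0.19) and Mrpl2 (0.28) were not called. The NRF1 form was likewise in Mrpl45 and Mrpl12, which rose, and in Mrpl17 and Mrpl32, which were not called. Only these letters in these windows were searched, and Mrpl37, Mrpl36 and Mrpl2 were singled out after their values were seen.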

How the data were processed

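The authors deposited linear probe set intensity values for 26 Affymetrix arrays, made with MAS5 according to the submitters' processing notes; its version and the detection calls are not given in the sources used here. These deposited intensity values have a trimmed mean of 500 on every array. Groups and replicate numbers came from the labels, whose free-text description names other material and was not used. Probe sets with 1 gene symbol in the platform annotation were used (34945 of 45101), 932 with several and 9211 unnamed were not, and 64 control probe sets were left out. Symbols were checked against the RefSeq table of GRCm38.p6, and 0 changed.

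Values were then transformed to log2(value + 23), where 23 is the rounded 20th percentile over all arrays. Probe sets at or under the 40th percentile of mean signal were dropped and the highest per gene was kept. Tests used limma 3.58.1 in R 4.3.3 (eBayes with trend) with Benjamini-Hochberg adjustment over 13018 genes and a threshold of 0.05. Comparisons over lines used the 9 averages of line and vector, fitted on line and on vector (degrees of freedom: 4 residual, 3.9 prior). Within-line and F tests used 26 arrays and 9 means (17 residual, 6.2 prior). The number of arrays limits the precision. The scripts were tested on simulated data.

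The genes and lists were chosen with earlier results of these data known. Named were the 10 largest called c-myc rises and 5 lowest changes, every v-src call and the lowest changes, up to 6 of the largest called differences between v-src and c-myc each way (6 lower, 1 higher), the 5 smallest p of each F test, the Mrps18 forms, Mrps30, Mrps36 and Mrpl12; Mrps34, and Mrpl32 and Mrpl52 within lines, were singled out after their values were seen. Alternatives changed the pseudocount, filter, normalization, probe set rule, trend, blocks, lines and arrays.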

Additional observations from a re-analysis of the deposited data

Results flagged for a closer look

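For 11 of the genes named by the rules stated above, the difference between c-myc and empty vector cells itself differed between lines WA, WB and WC. The test was the limma F test over 26 arrays, Benjamini-Hochberg adjusted. Mrpl12, Mrpl4, Mrpl22, Mrps26 and Mrpl15 had been picked for naming by the smallest p of this same test. The count of 11 is therefore no share of an independent list. Of the 76 genes 27.6% had such a call, and of all genes tested 16.2%. The adjusted p was 0.000771 for Mrpl12, 0.0013 for Mrpl4, 0.00191 for Mrpl22, 0.00203 for Mrps26, 0.00411 for Mrpl15 and 0.00454 for Mrps22. It was 0.0104 for Mrps18b, 0.0113 for Mrpl51, 0.0139 for Mrpl21, 0.0258 for Mrps15 and 0.0322 for Mrpl17. Mrps34 (0.0341) and Mrpl2 (0.0374), singled out after their values were seen and not in this count, had such a call as well. Mrps18b differed by 0.43 (WA), 0.48 (WB) and 0.99 (WC), and Mrps22 by 0.80, 0.48 and 1.01, higher with c-myc in all 3 lines. Mrpl17 differed by 0.10 in WA, -0.23 in WB and 0.21 in WC, with no call in any single line.

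For 11 of the named genes the v-src difference itself differed between the lines. Here too, Mrps6, Mrpl51, Mrps28, Mrpl21 and Mrps15 had been picked for naming by the smallest p of this test. Of the 76 genes 18.4% had such a call, and of all genes tested 13.5%. The adjusted p was 9.00e-05 for Mrps6, 0.000687 for Mrpl51, 0.00222 for Mrps28, 0.00375 for Mrpl21, 0.00486 for Mrps15 and 0.00688 for Mrpl19. It was 0.00965 for Mrpl52, 0.0298 for Mrpl45, 0.0358 for Mrpl39, 0.0375 for Mrps16 and 0.0452 for Mrps22. Mrpl19 differed by 0.41 (WA), -0.22 (WB) and 0.12 (WC), and Mrpl52 by 0.33, -0.13 and 0.32, each with WB the lowest.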

How the results depend on the processing

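Over the lines, the 33 c-myc rises became 57 with the arrays as separate values, 57 with the replicate block as well and 50 with each combination of line and vector as a random block, and ranged from 3 to 35 when lines or arrays were left out in turn (4, 19 and 3 without WA, WB and WC). The 5 v-src rises became 2 without a trend, 20 with separate arrays, 19 with the replicate block, 10 with the random block, 1, 0 and 0 without the lines, and 3 without WC c-myc replicate 1 and WA empty vector replicate 3, an alternative chosen after seeing the data; the range was 0 to 6. The 1 v-src fall became 0 without a trend, 11 with separate arrays, 10 with the replicate block, 7 with the random block, and 0 without WB or WC (range 0 to 1). Against c-myc, the 33 lower became 56 with separate arrays, 54 with the replicate block, and 14, 21 and 8 without the lines (range 8 to 37), and the 1 higher became 3 with separate arrays, 3 with the replicate block, 2 with the random block, and 0 with no filter, quantile normalization, no trend, any line or those 2 arrays left out. When lines or arrays were left out the median log2 differences stayed at 0.27 to 0.42 with c-myc, 0.00 to 0.08 with v-src and -0.38 to -0.32 between them. For none of these settings, nor for those within lines below, is the share of all genes called given here.

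Within lines, leaving out single arrays gave 45 to 53 c-myc rises in WA, 22 to 30 in WB and 48 to 58 in WC, and 0 to 1 falls in each. The WB falls, 0 at first, were 1 with the filter at the 60th percentile, the replicate block or those 2 arrays left out, and 2 with probe sets averaged. The 1 WC fall was 0 with a pseudocount of 1, no filter, averaged probe sets, no trend or the replicate block, and the 1 WA fall was 0 without those 2 arrays. With v-src, the ranges were 11 to 14 rises and 3 to 6 falls in WA (3 falls without those 2 arrays), 2 to 7 and 8 to 17 in WB, and 16 to 22 and 3 to 8 in WC. F test counts ranged from 14 to 27 for c-myc, 8 to 17 for v-src (9 without a trend) and 36 to 46 at baseline. Of 40 named calls, 21 were lost under at least 1 setting. After group means were removed, same-numbered arrays of a line correlated from -0.14 to 0.21, with 5 of 25 pairs above 0.1. Arrays with different numbers correlated from -0.25 to 0.15. These overlapping ranges do not settle whether replicate numbers pair the arrays.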
